A study of Mus musculus with 4 samples.

Results

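This is an account of 46 mouse genes that make the ribosome in the nucleolus, followed in muscle RNA of MCK-TD and Con-TD mice. The genes were listed by name for their known role, a choice made with earlier results of these data known. A gene entered when its row of the deposited table had a mean of at least 1 FPKM over the 4 libraries. FPKM relates the fragments of a gene to its transcript length and to the total mapped in that library. Of the 46 names, 45 had a row, and all 45 rows passed, among 12474 rows that passed in the whole table. Noc2l had no row under that name and is not analysed here. The member nearest the limit was Utp20, with a mean of 1.39 FPKM, and no member fell below it. No member passed through MCK-TD alone, since the lowest Con-TD mean, also that of Utp20, was 1.02 FPKM.

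The tissue is labelled GTN muscle of the C57BL/6 strain, with 2 libraries of the genotype MCK-TD, A and B, and 2 of the genotype Con-TD, F and G. The labels do not spell out either genotype name, and they give no altered gene, promoter, age, sex or treatment, so nothing can be said of how far MCK-TD serves as a model. Nothing in them ties a library to an animal of its own, and the p-values given here reflect only the spread among the 4 libraries, possibly a technical one. Relative sequencing depth lay between 0.934 and 1, taking Con-TD F as 1, and absolute depth is unknown.

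Ribosomes are built in the nucleolus. RNA polymerase I (Pol I) transcribes a long precursor of the ribosomal RNAs, small nucleolar ribonucleoproteins (snoRNPs) modify it, and large assemblies of processing factors cut and fold it into the precursors of the small and the large ribosomal subunit. Growth signals, among them MYC and mTORC1, are known to raise the output of this pathway, and in skeletal muscle ribosome production accompanies fibre growth and regeneration.

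Promoter sequences of the members are shown first, as a description only. They come from RefSeq on the build GRCm38.p6, which is not the build of the deposited values, and each window runs from 250 bases before to 50 bases after a RefSeq transcript start. Of the 45 members, 40 had at least 1 window, and Bop1, Fbl, Npm1, Rrp12 and Rrs1 had none. The palindromic E-box CACGTG, the letters that MYC and its relatives are known to bind, was in 9 of 48 member windows (18.8%), against 999 of 9643 windows of all tested genes (10.4%), 8 of 66 windows of cytosolic ribosomal protein genes (12.1%) and 17 of 83 windows of other Pol I, processome and large-subunit factors (20.5%). The ETS core CCGGAAG, searched on both strands, was in 29.2% of member windows, 17.6% of windows of all tested genes, 34.8% of those of ribosomal protein genes and 45.8% of those of the other factors. For the SP1 core GGGCGG, also on both strands, the shares were 70.8%, 62.7%, 60.6% and 60.2% in the same order. The YY1 core AAGATGGC and the palindromic NRF1 core were in 0 of the 48 member windows, and in 4.58% and 2.22% of those of all tested genes. These are matches of letters in short windows, and they show no binding.

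The E-box was in 3 of the 14 genes with a window that rose in MCK-TD (by the test described with the values) and in 6 of the 26 that were not called. The 3 that rose were Nop2, Tsr1 and Mybbp1a, and the 30 bases around the match, with the E-box in capitals, are given on the strand of each gene.
Nop2, chr6:125131811-125131840, plus strand: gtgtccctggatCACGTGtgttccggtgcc
Tsr1, chr11:74898092-74898121, plus strand: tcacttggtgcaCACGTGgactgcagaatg
Mybbp1a, chr11:72441347-72441376, plus strand: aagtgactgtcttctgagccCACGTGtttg
The 4 members with the largest rise among those with a window were Taf1d, Noc4l, Nop58 and Polr1a, and none of their windows held CACGTG. The stretch from 100 bases before to 50 bases after their RefSeq start follows, with any SP1 core (either strand) in capitals.
Taf1d, chr9:15306114-15306263, plus strand: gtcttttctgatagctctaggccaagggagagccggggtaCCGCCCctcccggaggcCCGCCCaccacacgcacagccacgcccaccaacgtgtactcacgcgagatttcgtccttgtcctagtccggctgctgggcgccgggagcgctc
Noc4l, chr5:110653333-110653482, minus strand: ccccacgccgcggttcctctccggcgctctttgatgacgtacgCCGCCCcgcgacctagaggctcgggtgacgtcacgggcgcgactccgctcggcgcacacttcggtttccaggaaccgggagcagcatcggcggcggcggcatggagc
Nop58, chr1:59684906-59685055, plus strand: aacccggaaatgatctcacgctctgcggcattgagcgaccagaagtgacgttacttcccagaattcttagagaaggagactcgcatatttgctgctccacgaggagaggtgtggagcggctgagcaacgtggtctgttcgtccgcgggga
Polr1a, chr6:71908953-71909102, plus strand: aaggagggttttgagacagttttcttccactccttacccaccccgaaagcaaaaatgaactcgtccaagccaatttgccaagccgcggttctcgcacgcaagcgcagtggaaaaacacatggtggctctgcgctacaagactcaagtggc
Taf1d and Noc4l hold the SP1 core within this stretch, and the stretches of Nop58 and Polr1a do not.

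MCK-TD was set against Con-TD to see which of these transcripts differ in level. Of the 45 genes, 17 rose in MCK-TD, 0 fell and 28 were not called, by limma's moderated test on log2(FPKM + 1) with Benjamini-Hochberg adjustment over all 12474 rows and a threshold of 0.05. At an unadjusted limma p under 0.05 on the deposited scale, 22 members were higher and 0 lower, and 34.3% of all rows were higher at that cut. The changes were modest, with a median log2 change of 0.40 over the members and 0.22 over all rows, and a largest fold of 2.31. The called share of 37.8% stands beside 24.3% of all rows called higher, 6.45% called lower and 30.8% called in either direction. Because the members were listed with earlier results of these data known, this share is no independent test. Adding the members' values within each library gave 738 and 785 FPKM in MCK-TD A and B, against 591 and 601 FPKM in Con-TD F and G. Both MCK-TD sums lay above both Con-TD sums. In whole muscle, a shift in cell types and a change of RNA per cell cannot be told apart.

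The count depended on how the libraries were scaled, and the deposited values of most rows were higher in MCK-TD. The deposited columns did not sum alike. They came to 1899175 and 2068375 FPKM in MCK-TD A and B, and to 2725173 and 2762335 FPKM in Con-TD F and G. Median of ratios scaling brings the median change of all rows to 0.01, and with it 6 of 45 members were called higher (13.3%) and 0 lower, close to the 14.7% of all rows called higher (12.1% lower). Quantile normalization gave 6 higher calls (all rows 12.7%) and 1 lower call, Ubtf (all rows 13.4%). The median change of the members was 0.16 under the first scaling and 0.12 under the second. Rescaling the libraries without mitochondrial genes, small RNAs and the 20 most abundant genes left 12 rises (all rows 17.9% higher, 9.08% lower). At an unadjusted limma p under 0.05, 13 members were higher and 3 lower under the median of ratios (22.4% of all rows higher). The counts were 12 and 5 under quantile normalization (20.1% of all rows higher) and 17 and 2 under this rescaling (26.7%). The members higher numbered 17 with a pseudocount of 0.1 (all rows 25.7% higher, 7.13% lower), 8 with no filter on low values (6.51% higher, 1.46% lower), 19 of the 37 with a mean of at least 5 FPKM (29.8% higher, 8.82% lower) and 16 without an intensity trend in the fit (23.6% higher, 6.12% lower), with 0 lower in each. The shares with no filter are over 25620 rows, many of them under a mean of 1 FPKM. Every member had a mean above 1 FPKM, so these shares are of an unlike set. Fbl, Nop58, Noc4l and Bop1 were called in all 7 alternatives that keep the 4 libraries. No member was called by limma when any 1 of the 4 libraries was left out, while 15 to 21 members, and 24.3% to 29.1% of all rows, were higher at an unadjusted p under 0.05. In those fits 62 to 162 rows of the whole table were called. As shares of all rows these were 0.0962% higher and 0.401% lower without Con-TD F, 0.176% higher and 0.545% lower without Con-TD G, 1.23% higher and 0.0641% lower without MCK-TD A, and 0.922% higher and 0.0641% lower without MCK-TD B. The median change of the members stayed between 0.36 and 0.46.

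The level of every member in every library lay between 0.991 and 92.7 FPKM. The median member stood at 12.9 and 13.7 FPKM in MCK-TD A and B and at 8.76 and 8.17 FPKM in Con-TD F and G, against medians of all rows of 7.89, 8.04, 6.12 and 6.27 FPKM in the same order. Npm1 was the most abundant member and Utp20 and Utp15 the least, with Utp20 lowest by its mean over the 4 libraries. For 33 of the 45 genes both MCK-TD libraries were above both Con-TD libraries (50.7% of all rows), for 2 both were below (21.3% of all rows), and for 10 the groups overlapped. Groups apart in either direction made up 72.0% of all rows. A positive change of the deposited values, overlapping or not, was found in 40 of the 45 genes and in 65.6% of all rows.

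**Figure D1:**
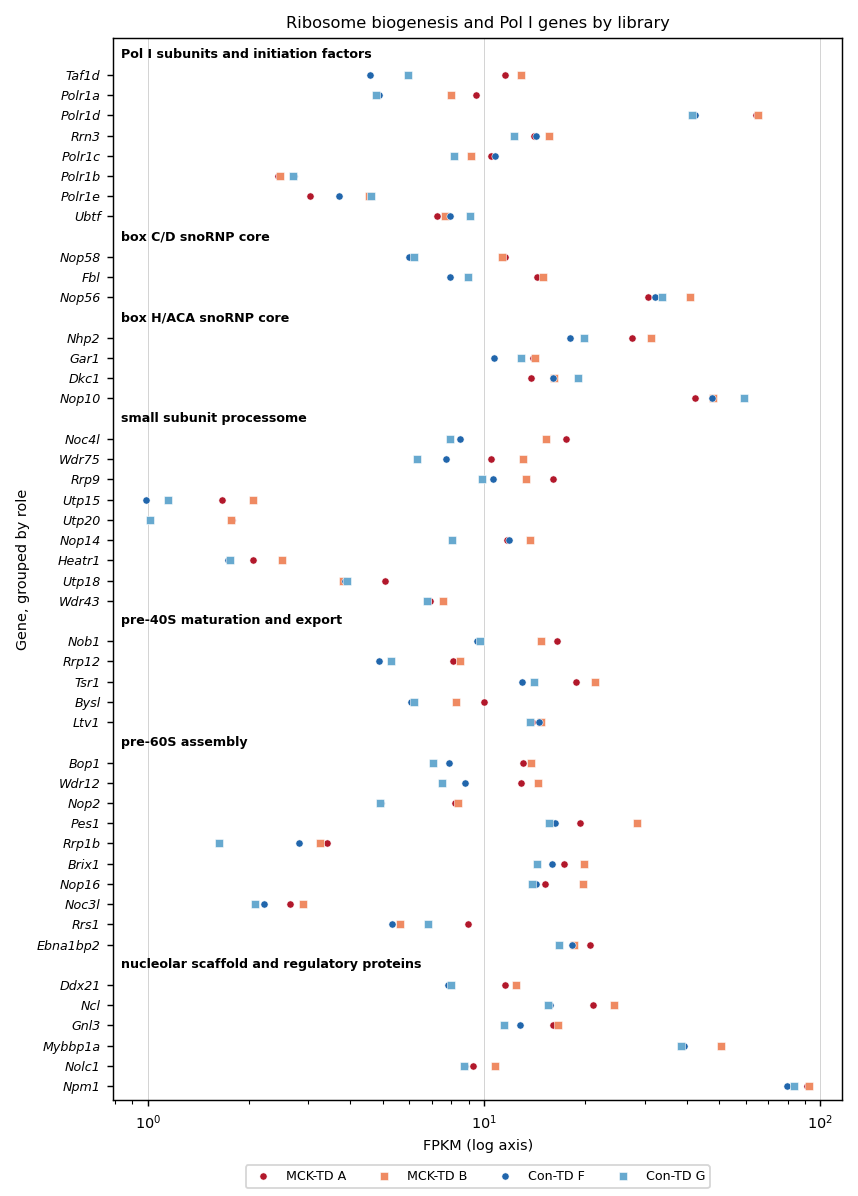
Deposited FPKM (log axis) of the 45 genes in the libraries MCK-TD A (dark red circles) and B (orange squares) and Con-TD F (dark blue circles) and G (light blue squares), genes grouped by role and ordered by change. Both MCK-TD points lie to the right of both Con-TD points for 33 genes, by at most 2.31-fold between group means (Taf1d).

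Of the 8 Pol I genes, 3 rose, 0 fell and 5 were not called (24.3% of all rows rose), and 3 of the 5 had a negative change. Under median of ratios scaling only Taf1d was called, with a group median of -0.13, and under quantile normalization Taf1d and Polr1d were called higher and Ubtf lower, with a group median of -0.20. Taf1d, a subunit of the promoter selectivity factor SL1, stood at 11.6 and 12.9 FPKM in MCK-TD A and B, against 4.59 and 5.95 in Con-TD F and G. The groups did not overlap, and the fold of 2.31 was the largest of any member (log2 change 1.08, SE 0.15, limma adjusted p = 0.0152). Polr1a, the largest catalytic subunit, was at 9.49 and 7.96 FPKM in MCK-TD, against 4.87 and 4.77 in Con-TD, 1.81 times as high (log2 change 0.74, SE 0.13, limma adjusted p = 0.0215). Polr1d, a small subunit that Pol I shares with Pol III, was the most abundant of the group, at 64.4 and 65.4 FPKM in MCK-TD and 42.3 and 41.5 FPKM in Con-TD (log2 change 0.62, SE 0.09, limma adjusted p = 0.0165).

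The other 5 Pol I genes were not called, and their difference from Polr1a was not tested. Polr1b, the second-largest subunit, was at 2.44 and 2.48 FPKM in MCK-TD and 2.72 and 2.70 in Con-TD, both MCK-TD values being a little lower (log2 change -0.10, SE 0.12, limma adjusted p = 0.538). Ubtf, the factor that holds ribosomal DNA open for Pol I, was at 7.27 and 7.67 FPKM in MCK-TD and 7.95 and 9.11 in Con-TD (log2 change -0.17, SE 0.12, limma adjusted p = 0.318). For Polr1e, a Pol I subunit, the groups overlapped, with 3.03 and 4.57 FPKM in MCK-TD and 3.71 and 4.60 in Con-TD. Rrn3, the growth-regulated initiation factor, and Polr1c, the partner of Polr1d, also overlapped between the groups, with log2 changes of 0.15 and 0.06. The genes named for the same machinery but listed separately (other Pol I subunits, SL1 subunits and subunits shared among polymerases) had 1 call in 12, Polr2l, higher in MCK-TD, and a median change of 0.29. Of all rows, 24.3% were called higher.

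The box C/D snoRNP, which carries out ribose methylation of ribosomal RNA, has 3 core proteins among the members, and 2 rose (24.3% of all rows). Another protein of the particle, Nhp2l1, was listed here with the snoRNP assembly factors. It was not called (log2 change 0.08, limma adjusted p = 0.578). Nop58 was at 11.5 and 11.3 FPKM in MCK-TD, against 5.97 and 6.18 in Con-TD (1.88-fold, log2 change 0.81, SE 0.10, limma adjusted p = 0.0121). Fbl, fibrillarin, the methyltransferase itself, was at 14.4 and 14.9 FPKM in MCK-TD, against 7.90 and 8.99 in Con-TD (1.73-fold, log2 change 0.73, SE 0.11, limma adjusted p = 0.0172). Libraries of each group agreed closely for both genes. Nop56, the partner of Nop58 in the particle, was not called, with 30.6 and 40.9 FPKM in MCK-TD and 32.2 and 33.8 in Con-TD. Its MCK-TD libraries lay on either side of the Con-TD values.

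In the box H/ACA snoRNP, which converts uridine to pseudouridine, 1 of 4 core genes rose, close to the 24.3% of all rows. None of the 4 was called under median of ratios or quantile scaling. Nhp2 was at 27.6 and 31.3 FPKM in MCK-TD and at 17.99 and 19.8 in Con-TD (1.56-fold, log2 change 0.61, SE 0.12, limma adjusted p = 0.0278). Dkc1, dyskerin, the pseudouridine synthase, was at 13.8 and 16.1 FPKM in MCK-TD and 16.0 and 19.0 in Con-TD (log2 change -0.21, SE 0.14, limma adjusted p = 0.311). Nop10 was at 42.5 and 47.9 FPKM in MCK-TD and 47.7 and 59.1 in Con-TD (log2 change -0.23, SE 0.15, limma adjusted p = 0.297). The groups overlapped for Dkc1 and Nop10, and Gar1 was a little higher in both MCK-TD libraries without being called.

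Ratios of partner genes within a library are not altered by any factor that scales the whole library, and 7 pairs were picked after the values had been seen, each a called gene over an uncalled one, so that the direction of the ratios largely follows from the choice. Polr1a stood to Polr1b as 3.90 and 3.22 in MCK-TD A and B, against 1.79 and 1.77 in Con-TD F and G. The ratio of Nop58 to Nop56 was 0.376 and 0.276 in MCK-TD, against 0.185 and 0.183 in Con-TD, and that of Nhp2 to Dkc1 was 1.9995 and 1.94, against 1.12 and 1.04. Both MCK-TD libraries lay above both Con-TD libraries in these 3 pairs, as they did for Taf1d over Ubtf, Fbl over Nop56 and Noc4l over Nop14. For Bop1 to Pes1 the groups overlapped, at 0.679 and 0.485 in MCK-TD and 0.485 and 0.451 in Con-TD, MCK-TD B being level with Con-TD F. No test of these ratios is given.

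**Figure D2:**
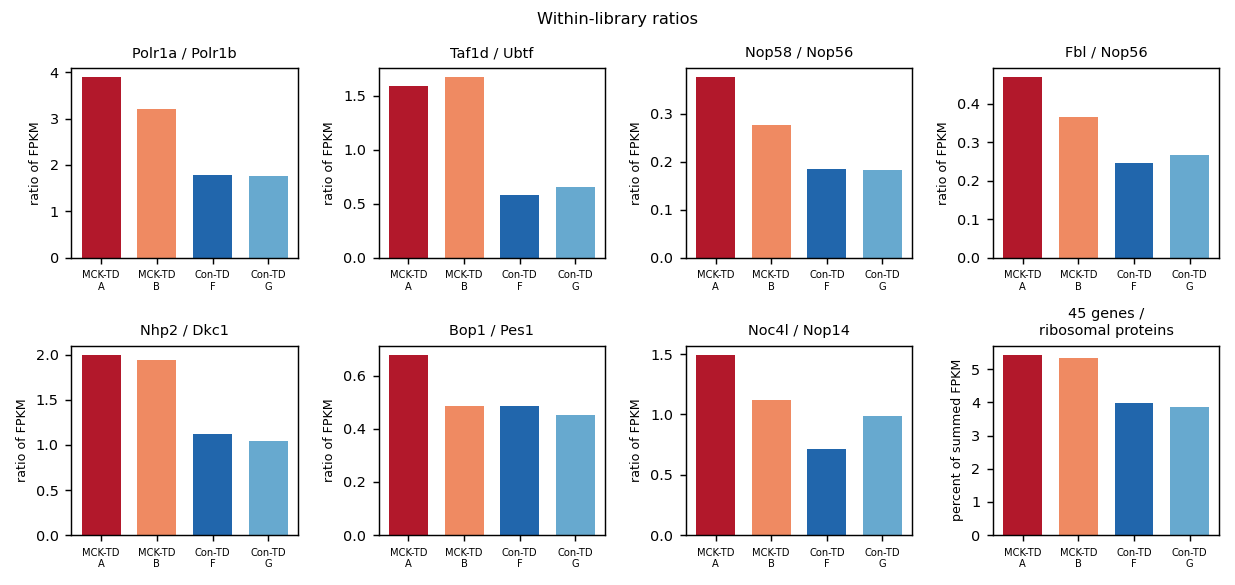
Ratio of FPKM between partner genes within each library (bars from 0, MCK-TD A dark red and B orange, Con-TD F dark blue and G light blue), and, in the last panel, the summed FPKM of the 45 genes as a percent of that of 78 cytosolic ribosomal protein rows. Both MCK-TD bars are taller than both Con-TD bars in every panel but that of Bop1 over Pes1, where MCK-TD B is level with Con-TD F. Polr1a over Polr1b was 3.90 and 3.22 in MCK-TD, against 1.79 and 1.77 in Con-TD.

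The small subunit processome packages the newborn precursor and prepares the small-subunit RNA for cleavage. All 9 of its listed members had a positive change on the deposited scale (65.6% of all rows), and 2 of the 9 rose (24.3% of all rows). The changes of Utp18 and Wdr43 turned negative under median of ratios and quantile scaling, and that of Heatr1 under quantile scaling. Noc4l was at 17.5 and 15.3 FPKM in MCK-TD and at 8.50 and 7.94 in Con-TD, 1.99 times as high (log2 change 0.91, SE 0.12, limma adjusted p = 0.0134). Wdr75, of the subcomplex that first meets the precursor, was at 10.5 and 13.0 FPKM in MCK-TD and at 7.73 and 6.30 in Con-TD (log2 change 0.67, SE 0.16, limma adjusted p = 0.0460). Noc4l held its call in every alternative with all 4 libraries, whereas Wdr75 lay close to the threshold and kept its call in 2 of those 7.

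The other processome members were lower in abundance or changed less. Utp20, a large scaffold protein, was at 1.78 and 1.77 FPKM in MCK-TD and 1.01 and 1.02 in Con-TD (limma adjusted p = 0.0799), and Utp15 at 1.66 and 2.06 FPKM in MCK-TD and 0.991 and 1.15 in Con-TD (limma adjusted p = 0.102). The pseudocount of 1 holds down the log2 changes of genes this low, which were 0.46 for both at folds of 1.74 and 1.73. Rrp9, the protein specific to the U3 particle, missed the threshold by little (16.0 and 13.3 FPKM in MCK-TD, 10.6 and 9.87 in Con-TD, limma adjusted p = 0.0591). Heatr1, Nop14, Utp18 and Wdr43 had log2 changes from 0.08 to 0.34, and the groups overlapped for Nop14 and Utp18. A separate list of 39 other processome and small-subunit factors held 19 rises and 2 falls (24.3% and 6.45% of all rows), at a median of 0.54. The largest changes there were those of Utp11l, at 25.6 and 28.2 FPKM in MCK-TD and 7.97 and 9.01 in Con-TD (3.17-fold, limma adjusted p = 0.00756), and the kinase Riok2 (3.08-fold, limma adjusted p = 0.00756). Rises in that list numbered 10 under the median of ratios (14.7% of all rows) and 7 under quantile normalization (12.7% of all rows).

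Late maturation of the small subunit, through export to cleavage in the cytoplasm, had 3 rises among 5 genes (24.3% of all rows rose), none of them called under median of ratios or quantile scaling. Nob1, the nuclease that makes the final cut of small-subunit RNA, was at 16.5 and 14.8 FPKM in MCK-TD and at 9.52 and 9.74 in Con-TD (1.62-fold, log2 change 0.64, SE 0.11, limma adjusted p = 0.0203). Rrp12, an export factor, was at 8.07 and 8.48 FPKM in MCK-TD and at 4.87 and 5.29 in Con-TD (1.63-fold, log2 change 0.61, SE 0.11, limma adjusted p = 0.0224). In both genes each MCK-TD library was above both Con-TD libraries by more than the gap within a group. Tsr1, a GTPase-like factor of the late precursor, rose to 18.7 and 21.4 FPKM in MCK-TD, against 13.0 and 14.1 in Con-TD (limma adjusted p = 0.0368). Bysl just missed the threshold (log2 change 0.50, limma adjusted p = 0.0506), and Ltv1 was alike in the libraries of both groups, at 13.9 and 14.8 FPKM in MCK-TD and 14.6 and 13.7 in Con-TD. By the annotation, 32.3% of the exon bases of Tsr1 overlap Srr on the other strand and 9.37% of those of Bysl overlap Ccnd3. Whether the counting used strand is not given in the sources used here, so reads of these pairs may not be told apart. Ccnd3 rose (log2 change 0.81) and Srr was not called (0.43).

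For the large subunit, 3 of 10 genes rose (24.3% of all rows), and the other 7 had positive changes without a call. A positive change was found in 65.6% of all rows. The changes of Rrs1 and Ebna1bp2 turned negative under median of ratios and quantile scaling, and those of Nop16, Noc3l and Brix1 under the quantile one. Higher calls in the group numbered 2 under the median of ratios (14.7% of all rows) and 1 under the quantile scaling (12.7% of all rows). Bop1, Pes1 and Wdr12 form the PeBoW complex, which is needed to process the large-subunit RNA. Bop1 was at 13.1 and 13.8 FPKM in MCK-TD and at 7.88 and 7.04 in Con-TD (1.80-fold, log2 change 0.77, SE 0.11, limma adjusted p = 0.0153). Wdr12 was at 12.9 and 14.5 FPKM in MCK-TD and at 8.76 and 7.50 in Con-TD (1.68-fold, log2 change 0.69, SE 0.13, limma adjusted p = 0.0262). Pes1 was higher in both MCK-TD libraries, at 19.2 and 28.4 FPKM, with 16.2 and 15.6 FPKM in Con-TD, but the MCK-TD libraries differed from each other and it was not called (limma adjusted p = 0.125).

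Nop2, a methyltransferase of large-subunit RNA, differed little between libraries of a group, at 8.18 and 8.36 FPKM in MCK-TD and 4.95 and 4.91 in Con-TD (1.68-fold, log2 change 0.64, SE 0.10, limma adjusted p = 0.0173). The assembly factors Rrp1b, Brix1, Nop16, Noc3l, Rrs1 and Ebna1bp2 had log2 changes from 0.15 to 0.45, and the groups overlapped for Rrs1. Among 42 other large-subunit factors tested there were 16 rises and 0 falls (24.3% and 6.45% of all rows), at a median of 0.46. The largest rises were those of the helicases Ddx54 (2.48-fold, limma adjusted p = 0.00853) and Ddx56 (2.28-fold, limma adjusted p = 0.0140). Median of ratios scaling and quantile normalization each gave 5 higher calls in that list (14.7% and 12.7% of all rows).

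The nucleolar proteins without a single step of their own all had positive changes as deposited (negative for Npm1 and Nolc1 under median of ratios and quantile scaling), and 3 of 6 rose (24.3% of all rows). None of these 3 was called under either of those scalings. Ddx21, a helicase of Pol I transcription and processing, was at 11.6 and 12.5 FPKM in MCK-TD and 7.80 and 7.98 in Con-TD (log2 change 0.55, SE 0.10, limma adjusted p = 0.0248). Ncl, nucleolin, was at 21.1 and 24.3 FPKM in MCK-TD and 15.7 and 15.5 in Con-TD (log2 change 0.51, SE 0.11, limma adjusted p = 0.0374). Mybbp1a, a nucleolar repressor of transcription, was abundant and close between replicates, at 50.5 and 50.7 FPKM in MCK-TD and 39.2 and 38.6 in Con-TD. Its rise was the smallest that was called (1.30-fold, log2 change 0.37, SE 0.09, limma adjusted p = 0.0453), and it was called in 2 of the 7 alternatives with all libraries. Gnl3, nucleostemin, missed the threshold (log2 change 0.40, limma adjusted p = 0.0540), and Nolc1 and Npm1, nucleophosmin, changed by 0.18 and 0.17. Npm1 was at 91.0 and 92.7 FPKM in MCK-TD and 79.5 and 83.5 in Con-TD, and its value is uncertain because processed copies of this gene in the genome can share its fragments.

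**Figure D3:**
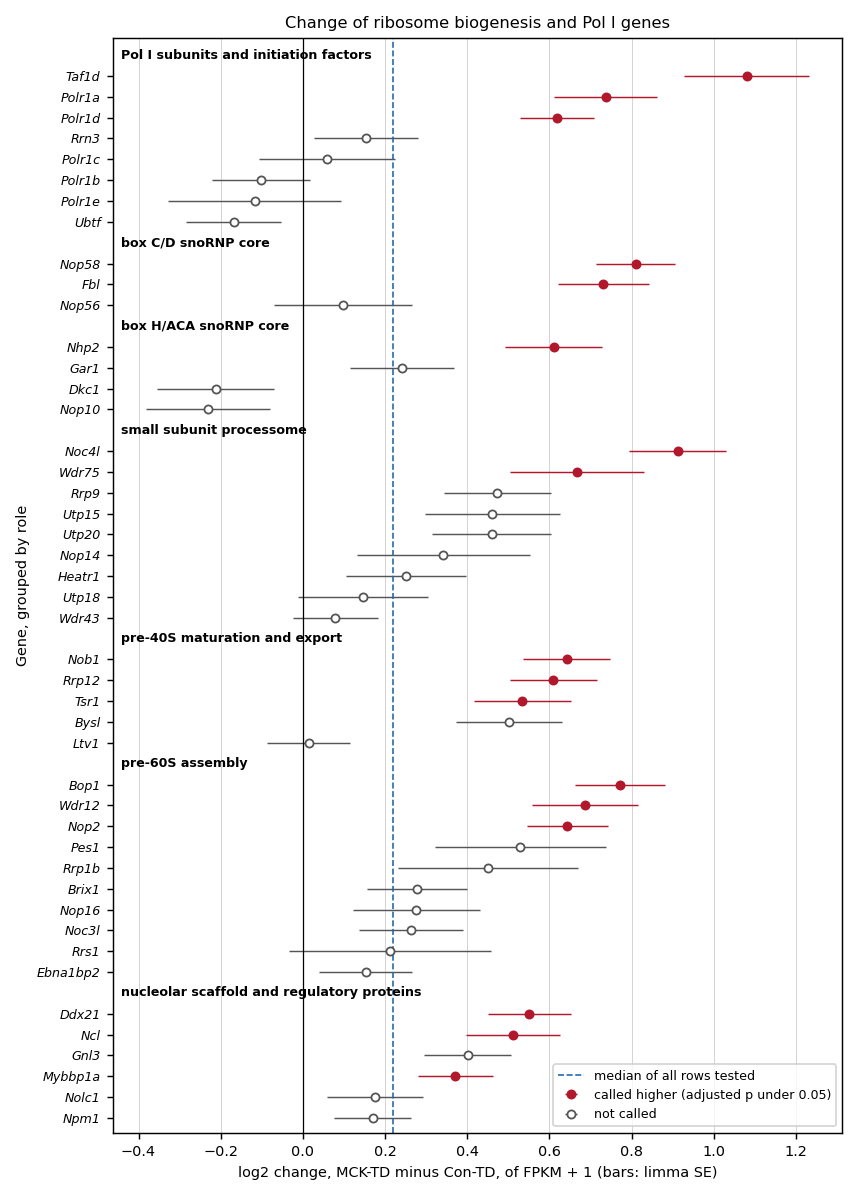
Log2 change (MCK-TD minus Con-TD, of FPKM + 1) of each of the 45 genes with its limma SE, grouped by role, with filled red points for the 17 called genes and open points for the 28 not called. The dashed line is the median of all 12474 rows, 0.22, and 30 of the 45 genes lie to its right.

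The ribosomal proteins, the products that the pathway assembles, gave few rises. Among 78 rows of cytosolic ribosomal protein genes 2 rose and 3 fell (24.3% and 6.45% of all rows), and the median change was -0.10. Rps2 (2.36-fold, limma adjusted p = 0.00818) and Rpl3 (2.15-fold, limma adjusted p = 0.0229) were those that rose. Lower calls among the 78 numbered 28 under median of ratios scaling (12.1% of all rows) and 21 under quantile normalization (13.4% of all rows). Each scaling gave 2 higher calls there (14.7% and 12.7% of all rows). Many of these genes have processed copies in the genome, and single rows are uncertain. The summed FPKM of the 45 nucleolar genes came to 5.44% and 5.34% of that of the ribosomal proteins in MCK-TD A and B, against 3.99% and 3.85% in Con-TD F and G. The difference in this share was not tested.

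**Figure D4:**
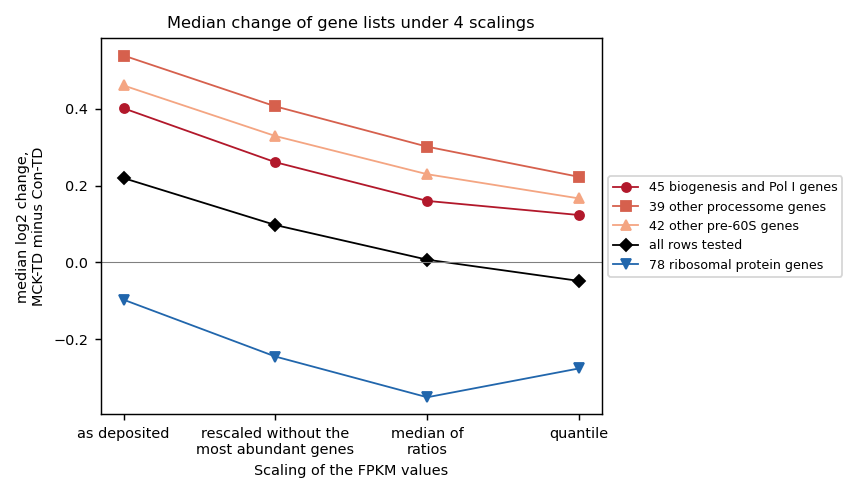
Median log2 change (MCK-TD minus Con-TD) of the 45 genes, of 2 separate lists of biogenesis factors, of all rows and of the cytosolic ribosomal proteins, with the values as deposited and under 3 other scalings. The 45 genes run from 0.40 as deposited to 0.12 with quantile normalization and stay above the median of all rows, while the ribosomal proteins stay below 0.

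Neighbouring parts of the pathway are read beside the 24.3% of all rows called higher and the 6.45% called lower. Among 22 rows of Pol III and its factors 4 rose and 1 fell (median change 0.22), with Polr3k and Polr3e as the largest rises (1.87-fold and 1.86-fold). Of 22 rows of the RNA exosome and RNase MRP, which trim and cut the precursor, 4 rose and 2 fell (median -0.01), with Exosc9 and Pop1 at 2.71-fold and 3.39-fold. Under median of ratios scaling Pol III had 1 higher and 2 lower calls and the exosome list 3 and 5, and under the quantile one these were 0 and 2 for Pol III and 2 and 5 for the exosome list. Among 10 rows listed as snoRNP assembly factors, Nhp2l1 included, only Ruvbl1 rose (2.04-fold). In the MYC network 7 of 11 rows were tested and Mlx alone was called, higher in MCK-TD (1.82-fold), while both other scalings gave 0 higher calls and 1 lower call. Ribosomal RNA rows were at 0 in all 4 libraries, so the product of Pol I could not be followed.

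Genes whose span encloses snoRNA genes were frequent among the members. Whether those snoRNAs lie in introns was not checked. By GENCODE annotation on GRCm38, 8 of the 45 genes (17.8%) enclose at least 1 snoRNA gene on their own strand, against 217 of 11784 tested genes found there (1.84%). Taf1d encloses 8, Nop56 5 and Nop58 4, and the others are Ncl, Gnl3, Wdr43, Tsr1 and Dkc1. Of the 8 host genes, 4 rose and 4 were not called, and of the 37 other members 13 rose, beside 24.3% of all rows. Over all tested genes, 61 of 217 hosts were called in either direction (30.8% of all rows). In a separate list of snoRNA host RNAs without a protein, 3 of 7 rose, led by Snhg4 (3.89-fold) and Snhg3 (2.13-fold), and all 7 were higher in both MCK-TD libraries (50.7% of all rows). The members lie on 18 chromosomes, with at most 7 on 1 of them.

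Markers of other cells also differed between the groups, and their calls stand beside the 24.3% of all rows called higher and the 6.45% called lower. These calls are on the deposited scale only. Macrophage markers had 11 calls in 14 rows tested, all higher, and their summed level over 16 rows was 347 and 305 FPKM in MCK-TD, against 54.8 and 75.5 FPKM in Con-TD. Cycling-cell genes summed to 51.3 and 57.9 FPKM in MCK-TD and 22.6 and 22.5 FPKM in Con-TD (4 of 8 rows tested rose). Satellite cell and myoblast genes summed to 39.3 and 35.7 FPKM in MCK-TD and 18.2 and 19.2 FPKM in Con-TD (2 of 5 rose). Most of that difference lay in the 2 that rose, Myog and Myod1. Myog was at 17.2 and 15.1 FPKM in MCK-TD and 4.59 and 4.68 in Con-TD. Myod1 was at 12.1 and 11.5 FPKM in MCK-TD and 6.29 and 7.09 in Con-TD. Cdh15, Myf5 and Vcam1 were higher in both MCK-TD libraries but not called, with log2 changes of 0.19, 0.44 and 0.41. None of the macrophage or satellite cell markers was at 0 in any library, and Bub1 and Ccnb1 of the cycling list were at 0 in at least 1. Muscle fibre genes, which mark the labelled tissue, summed to 98761 and 127226 FPKM in MCK-TD and 153925 and 143482 FPKM in Con-TD, with 8 of 13 lower and 1 higher. Endothelial, fibroblast, mural, adipocyte and Schwann cell markers had 7 calls in all, each of them lower in MCK-TD. Endothelial markers summed to 41.8 and 32.0 FPKM in MCK-TD and 54.2 and 77.3 in Con-TD. Fibroblast markers summed to 221 and 256 FPKM in MCK-TD and 290 and 367 in Con-TD. Dcn held most of the fibroblast difference, at 93.9 and 141 FPKM in MCK-TD and 165 and 192 in Con-TD. The groups overlapped for Col1a1, Col3a1 and Lum. Mural markers stood at 51.1 and 42.2 FPKM in MCK-TD and 79.1 and 98.2 in Con-TD. Rgs5 held most of the mural difference, at 25.5 and 16.8 FPKM in MCK-TD and 55.9 and 66.6 in Con-TD. The groups overlapped for Acta2, and Cspg4 was higher in both MCK-TD libraries without a call. Adipocyte markers stood at 14.5 and 19.9 FPKM in MCK-TD and 40.7 and 145 in Con-TD. Most of that was Cfd, at 11.4 and 15.2 FPKM in MCK-TD and 32.3 and 122 in Con-TD. Schwann cell markers stood at 7.79 and 12.5 FPKM in MCK-TD and 25.2 and 35.8 in Con-TD. T and B cell markers had no row above the filter, and neutrophil markers had no call in 3 rows. The part of these cells in the members' changes was not tested.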

How the data were processed

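RNA of 4 mouse muscle libraries was DNase-treated and enriched for mRNA and sequenced at BGI, per the labels' protocols. The authors deposited FPKM for each gene in each library. The submitters' processing notes name STAR, Cufflinks and mm9 but no version. No source used here gives the annotation or the use of strand. Absolute depth is unknown, and relative depth was read from the most frequent ratio of low FPKM values between libraries. Enrichment for mRNA keeps most ribosomal RNA out of the libraries.

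Rows with a mean of at least 1 FPKM were kept (12474 of 37305). Values were used as log2(FPKM + 1), a pseudocount of 1 that understates changes of low genes. Limma 3.58.1 under R 4.3.3 fitted the group alone over all kept rows, with 2 residual degrees of freedom, an intensity trend and Benjamini-Hochberg adjustment, two-sided, and was checked on simulated data. Group names came from the genotype labels. Changes are MCK-TD minus Con-TD and folds are ratios of group means.

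The members and lists were chosen with earlier results of these data known. Genes with values in every library follow a rule of up to 2 called rows with the largest change in each direction per role, with the members that go against their role, and up to 2 called genes per other list. Others were named after their values were seen, Tsr1, Mybbp1a, Polr1d and the uncalled genes among them. Alternatives were 3 other scalings, a pseudocount of 0.1, no filter (25620 rows above 0), a mean of at least 5 FPKM, no intensity trend and each library left out. Text notes deposited in 2 small sheets were not used.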

Additional observations from a re-analysis of the deposited data

How the results depend on the processing

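The direction of the median change of the 45 members held in all 11 alternatives. Members called higher numbered 17 of 45 as deposited (24.3% of all rows). They numbered 6 under the median of ratios (13.3%, beside 14.7% of all rows). Quantile normalization also gave 6 (13.3%, beside 12.7% of all rows), or 7 with the 1 lower call, Ubtf. Without a filter on low values they numbered 8, beside 6.51% of 25620 rows, many of them under a mean of 1 FPKM. The other 4 alternatives with all libraries gave 12 to 19, beside 17.9% to 29.8% of all rows. The 19 were of 37 members tested. The median change moved to 0.16 under the median of ratios, 0.12 under quantile normalization, 0.26 and 0.47 under rescaling without mitochondrial, small RNA and the 20 most abundant genes and under a mean of at least 5 FPKM. Leaving out 1 library gave 0 member calls by limma each time (15 to 21 members, and 24.3% to 29.1% of all rows, higher at an unadjusted p under 0.05) and medians from 0.36 to 0.46. Calls over all rows were 3837, or 3343, 3255, 3364, 4100, 2043, 2886 and 3709 under the 3 scalings, the pseudocount of 0.1, no filter, the mean of at least 5 FPKM and no trend, and higher calls were 79.0% as deposited but 54.8%, 48.8% and 66.3% with the 3 scalings.

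None of the called members changed sign in any alternative, but some uncalled ones did. Under the median of ratios the log2 change was -0.175 for Polr1c, -0.0865 for Rrn3, -0.154 for Nop56, -0.147 for Wdr43, -0.0614 for Utp18, -0.227 for Ltv1, -0.0106 for Rrs1, -0.0915 for Ebna1bp2, -0.0852 for Npm1 and -0.0583 for Nolc1. Under quantile normalization it was -0.252 for Polr1c, -0.147 for Rrn3, -0.174 for Nop56, -0.0658 for Gar1, -0.000262 for Heatr1, -0.237 for Wdr43, -0.146 for Utp18, -0.288 for Ltv1, -0.0209 for Nop16, -0.000818 for Noc3l, -0.113 for Rrs1, -0.0105 for Brix1, -0.139 for Ebna1bp2, -0.00602 for Npm1 and -0.132 for Nolc1. Rescaling without the most abundant genes gave -0.0778 for Polr1c, -0.0487 for Nop56, -0.0526 for Wdr43 and -0.126 for Ltv1. Over the 4 fits that each leave out a library the change ran from -0.120 to 0.237 for Polr1c, -0.350 to 0.116 for Polr1e, -0.0281 to 0.0567 for Ltv1, -0.0247 to 0.317 for Utp18, -0.0804 to 0.505 for Rrs1 and -0.105 to 0.2997 for Nop56. The cause of these shifts was not tested, though a scaling moves all rows by construction.

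No paired analysis was possible because the labels give the groups no shared replicate numbers. With a library left out, the lone library of its group is assumed to vary like the others, with 1 residual degree of freedom. The 2 libraries a group and an unknown depth limit the calls, and an unrecorded batch cannot be told apart from genotype.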
